A study of Mus musculus with 6 samples.

Results

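Astrocyte marker genes did not move as a block in the brains of hSRY-ON mice. The set comprised 10 genes that are widely used to recognize astrocytes (Agt, Gfap, Aqp4, Aldh1l1, Aldoc, Slc1a2, Slc1a3, Gja1, Ntsr2 and Fgfr3), and its members were all 15 probes of the brain table that carried one of these symbols, out of 25697 probes under 18138 symbols. Of the 15 probes, 13 were bright enough to be tested, and each gene kept at least 1 of them. Agt rose 3.02-fold, Gfap fell to 0.563 of its hSRY-OFF signal and Aqp4 to 0.569. The other 7 genes did not pass the test. Slc1a3 and Gja1, for example, had folds of 1.02 and 0.972.

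The samples were whole brains of male FVB mice taken at postnatal day 6, with 3 arrays of hSRY-OFF and 3 of hSRY-ON. Mice of both groups carried the Signalox-hSRY transgene, present as a single copy at the H11 locus behind the ubiquitous CAG promoter. In hSRY-OFF mice the transgene was unrecombined, so that the promoter drove the red fluorescent protein DsRed2. In hSRY-ON mice Cre, supplied by oocytes of Ddx4-Cre mothers, had removed that cassette, and the promoter drove FLAG-tagged human SRY, the testis-determining transcription factor, together with EGFP. The hSRY-ON animals on the arrays did not carry Ddx4-Cre themselves. Recombination takes place in the early embryo, and the paper shows it in brain, heart and testis of a pup from this cross. Recombination was thus not limited to astrocytes, and hSRY-ON pups grow slowly and die in early postnatal life. Cre passes from the oocyte whatever the genotype of the pup, so unrecombined carriers would have come from other mothers and litters. The arrays therefore compare whole animals that differ in health, and by this account in mother and litter, as well as in the transgene. These cannot be told apart here. In whole tissue, fewer cells of a type and less RNA per cell cannot be told apart either.

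Astrocytes are the glia that take up glutamate and potassium from the extracellular space, couple to each other through gap junctions and wrap blood vessels with endfeet rich in water channels. In the rodent brain they are produced from radial glia around birth and mature over the first postnatal weeks, so a brain of this age holds immature astrocytes, some of them still dividing. The 10 genes cover several of these functions, from a secreted hormone precursor and a cytoskeletal filament to transporters, channels, metabolic enzymes and receptors.

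Signals were background-corrected, quantile normalized and put on the log2 scale, and levels below are these normalized log2 signals (mean ± SD, n = 3 arrays per group where both are given). Differences are hSRY-ON minus hSRY-OFF on the same scale, and a probe is called when its limma adjusted p, computed over all 14215 tested probes, is under 0.05. The arrays were alike in brightness, with median raw signals from 200.2 to 220 and 13816 to 14377 detected probes. Within a group they correlated at 0.991 to 0.994 and between groups at 0.986 to 0.990. These are correlations over probes, not over independent samples. The array hSRY-ON 3 stood apart on the second principal component, at -22.2 against 0.045 to 8.92 for the other arrays, so results that change without it are given both ways. Among all tested probes 2.17% were called, 0.844% as higher and 1.32% as lower in hSRY-ON, and in 27.7% the 3 hSRY-ON values did not overlap the 3 hSRY-OFF values. An unadjusted p under 0.05 was reached by 20.9% of all tested probes and by at least 1 probe of 25.2% of all tested genes, against which the unadjusted counts of gene lists below are to be read. No probe of human SRY was read here, and nothing in the labels says whether the arrays of a group came from 1 litter or several, so p-values measure the spread between these samples only.

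Among the 13 tested probes of the astrocyte markers, 3 (23.1%) were called, 1 as higher and 2 as lower, against 2.17% of all tested probes. The groups did not overlap for 7 of the 13 (53.8%, against 27.7% of all tested probes), 3 of them with hSRY-ON above and 4 with hSRY-ON below hSRY-OFF. Both extremes lay near the ends of the whole distribution. Only 9 of the 14215 tested probes had a larger positive difference than Agt, 90 had a larger negative one than Gfap and 94 than Aqp4.

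**Figure D1:**
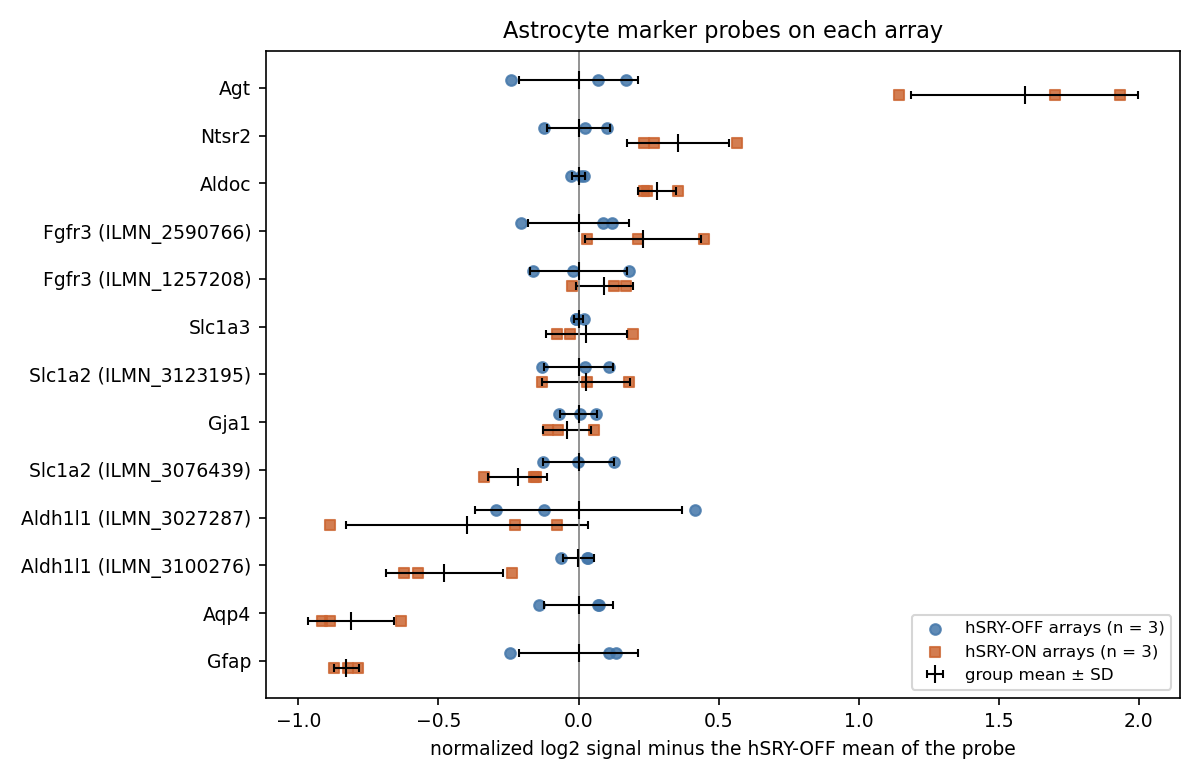
Normalized log2 signal of the 13 tested probes on each of the 6 arrays, minus the hSRY-OFF mean of the same probe (circles hSRY-OFF, squares hSRY-ON, bars the group mean ± SD, n = 3 per group). The hSRY-ON squares of Agt lie far to the right of the hSRY-OFF circles, those of Aqp4 and Gfap lie wholly to the left of hSRY-OFF, and those of Slc1a3 and Gja1 overlap the hSRY-OFF circles.

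Agt encodes angiotensinogen, the secreted precursor of angiotensin, which in the brain is made mainly by astrocytes. Its probe (ILMN_1227398) read 8.38, 8.69 and 8.79 in the hSRY-OFF group and 10.55, 10.32 and 9.77 in the hSRY-ON group, in the order of their replicate numbers 1 to 3 here and below. Every hSRY-ON array was far above every hSRY-OFF array, and the hSRY-ON arrays were spread more widely (SD 0.40 against 0.21), with hSRY-ON 3 the lowest of them. Agt rose by 1.59 (SE 0.21, 95% interval 1.10 to 2.09, limma adjusted p = 0.0263). The groups were also apart in the deposited signals before any correction, at 535, 559 and 576 in hSRY-OFF and 1690, 1353 and 979 in hSRY-ON. In the fit without background correction the difference of Agt was smaller, 1.30 (limma adjusted p = 3.85e-05).

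Gfap encodes glial fibrillary acidic protein, the intermediate filament of mature and reactive astrocytes. The Gfap probe (ILMN_1214715) read 8.08, 8.46 and 8.43 in hSRY-OFF and 7.45, 7.50 and 7.54 in hSRY-ON. The hSRY-ON arrays lay close together and all below hSRY-OFF, of which hSRY-OFF 1 was the lowest. Gfap fell by 0.83 on the log2 scale (SE 0.12, 95% interval -1.10 to -0.55, limma adjusted p = 0.0308). This is a dim probe, at 463 to 496 raw units in hSRY-OFF and 319 to 330 in hSRY-ON, and the size of its fall depended on the background correction. Without any, the difference was -0.51 (adjusted p = 0.000964).

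The promoter windows of Agt and Gfap are printed because these genes moved furthest in opposite directions and SRY is a DNA-binding protein of the SOX family. Each runs from 250 bases before to 50 bases after the annotated start in RefSeq (GRCm38.p6), written 5′ to 3′ on the strand of the gene. Both genes lie on the minus strand, Agt at chr8:124569657-124569956 and Gfap at chr11:102897151-102897450. Capitals mark a match to TATAAA, the TATA box, the only motif of those searched that either window held.
Agt: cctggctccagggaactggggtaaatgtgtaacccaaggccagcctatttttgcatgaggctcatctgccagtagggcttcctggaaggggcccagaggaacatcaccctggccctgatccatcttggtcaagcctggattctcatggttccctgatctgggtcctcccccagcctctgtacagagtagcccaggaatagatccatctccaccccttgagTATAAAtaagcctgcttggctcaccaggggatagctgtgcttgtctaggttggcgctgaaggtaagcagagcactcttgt
Gfap: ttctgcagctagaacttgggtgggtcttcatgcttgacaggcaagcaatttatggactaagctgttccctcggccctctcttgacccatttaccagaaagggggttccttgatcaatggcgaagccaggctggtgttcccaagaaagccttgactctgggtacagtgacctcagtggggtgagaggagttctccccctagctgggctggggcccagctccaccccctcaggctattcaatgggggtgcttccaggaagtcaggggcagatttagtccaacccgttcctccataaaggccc

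The letters searched on both strands were AACAAT, a core recognized by SRY and other SOX proteins, AACAAAG, a site of TCF and SOX proteins that shares its first letters with the former, AGAACA, a core of the sites bound by the glucocorticoid receptor, TATAAA and CCAAT. RefSeq windows were found for 9 of the 10 genes (11 windows). The TATA box of Agt began 30 bases upstream of the start (offset -30). In the Gfap window no searched motif was found. AACAAT stood in 0 of the 11 windows and in 10.7% of all 32851 promoter windows, and AACAAAG in 0 of 11 and 5.85% of all. AGAACA was found in 1 of the 11 windows, that of Slc1a3 (19.0% of all), TATAAA in 2, those of Agt and Slc1a3 (13.6% of all), and CCAAT in 3, those of Aldh1l1, Slc1a3 and Fgfr3 (37.4% of all). A match is a description of these letters, and a missing match says only that they are not in this window.

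Among the channels and transporters, Aqp4 stood alone in passing the test. It encodes aquaporin-4, the water channel of astrocyte endfeet. Its probe (ILMN_2757232) read 11.36, 11.37 and 11.15 in hSRY-OFF and 10.38, 10.66 and 10.41 in hSRY-ON. All hSRY-ON arrays were well below the lowest hSRY-OFF array. Aqp4 fell by 0.81 on the log2 scale (SE 0.11, 95% interval -1.07 to -0.55, limma adjusted p = 0.0275). Raw signals were 3138, 2733 and 2340 in hSRY-OFF and 1509, 1682 and 1455 in hSRY-ON, and without background correction the difference was still -0.75.

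Slc1a3 encodes GLAST, the glutamate transporter that astrocytes express from their radial glial origin on. Its probe (ILMN_2634317) read 14.31, 14.34 and 14.31 in hSRY-OFF and 14.51, 14.29 and 14.24 in hSRY-ON. The hSRY-ON values lay on both sides of the hSRY-OFF values. The difference was 0.03 (SE 0.09, 95% interval -0.19 to 0.25, adjusted p = 0.897), and the lower end of this interval lies well short of the fall of Aqp4. Its sign turned to -0.05 without hSRY-ON 1.

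Gja1 encodes the main gap junction protein of astrocytes. Its probe (ILMN_1244291) read 13.34, 13.20 and 13.28 in hSRY-OFF and 13.33, 13.20 and 13.17 in hSRY-ON. The groups overlapped, and the difference was -0.04 (SE 0.08, 95% interval -0.24 to 0.16, adjusted p = 0.824). Among the probes whose interval includes 0, those of Gja1 and Slc1a3 had the narrowest intervals.

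Slc1a2 encodes GLT-1, the glutamate transporter that astrocytes acquire as they mature, and it had 4 probes. Of these, ILMN_2642339 was above background on 0 arrays and ILMN_3047516 on 1, and neither was tested. The brighter tested probe, ILMN_3076439, read 8.67, 8.93 and 8.80 in hSRY-OFF and 8.46, 8.65 and 8.64 in hSRY-ON. These groups did not overlap, although the margin was narrow, and the difference of -0.22 (SE 0.10, 95% interval -0.45 to 0.02) did not pass (adjusted p = 0.269). The other tested probe, ILMN_3123195, read 8.10, 8.19 and 7.95 against 7.95, 8.26 and 8.11, with overlapping groups and a difference of 0.03 (SE 0.11, 95% interval -0.23 to 0.29, adjusted p = 0.919) that turned negative, to -0.04 and -0.05, without hSRY-OFF 3 or hSRY-ON 2. The direction of this probe is therefore not settled.

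The metabolic enzymes differed in sign. Aldh1l1 encodes 10-formyltetrahydrofolate dehydrogenase, an enzyme of folate metabolism whose promoter is much used to label astrocytes. Its brighter probe (ILMN_3100276) read 10.41, 10.50 and 10.50 in hSRY-OFF and 9.90, 9.85 and 10.23 in hSRY-ON. The groups did not overlap, and hSRY-ON 3 lay closest to hSRY-OFF. The difference of -0.48 (SE 0.12, 95% interval -0.75 to -0.20) missed the threshold at an adjusted p of 0.0834, and without hSRY-ON 3 it was -0.59 with an adjusted p of 0.0301 (0.00197 to 0.211 over all alternatives). The dim second probe (ILMN_3027287), detected on 5 of the 6 arrays, gave a difference of the same sign, -0.40 (SE 0.26, adjusted p = 0.422), with overlapping groups.

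Aldoc encodes aldolase C, the brain aldolase of glycolysis. Its probe (ILMN_3160137) read 13.04, 13.07 and 13.08 in hSRY-OFF and 13.42, 13.30 and 13.31 in hSRY-ON. The hSRY-OFF arrays lay very close together and all hSRY-ON arrays lay above them. The difference of 0.28 (SE 0.08, 95% interval 0.10 to 0.46) did not pass (adjusted p = 0.105), although it did without background correction (0.0176) and with a robust prior that follows signal (0.00131).

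Ntsr2 and Fgfr3 are the cell-surface receptors of the set. Ntsr2, the low-affinity neurotensin receptor, read 10.25, 10.48 and 10.40 in hSRY-OFF and 10.64, 10.94 and 10.61 in hSRY-ON (ILMN_2769234). The groups did not overlap, with a difference of 0.36 (SE 0.12, 95% interval 0.08 to 0.63, adjusted p = 0.151). Like Aldoc, Ntsr2 was called only in the fits without background correction (0.0280) and with a robust prior that follows signal (0.0137), among the 15 alternatives run. Fgfr3, a fibroblast growth factor receptor of radial glia and astrocytes, had a brighter probe (ILMN_1257208) at 9.24, 9.39 and 9.58 in hSRY-OFF and 9.53, 9.57 and 9.38 in hSRY-ON. The groups overlapped at this probe, with a difference of 0.09 (SE 0.11, adjusted p = 0.684), and at its dim probe ILMN_2590766, with 0.23 (SE 0.14, adjusted p = 0.386).

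With the brightest probe taken for each gene, 5 of the 10 genes lay above 0 and 5 below. Their median difference was -0.0064, beside 0.0004 over all 10548 tested genes. The differences themselves were wide, with an SD of 0.70 over the 10 genes beside 0.26 over all genes and a median size of 0.32 beside 0.14. A range of 2.42 separated Agt from Gfap. For comparison, the middle 50% of all tested probes lay between -0.14 and 0.14. These are descriptions of a chosen list and carry no test.

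**Figure D2:**
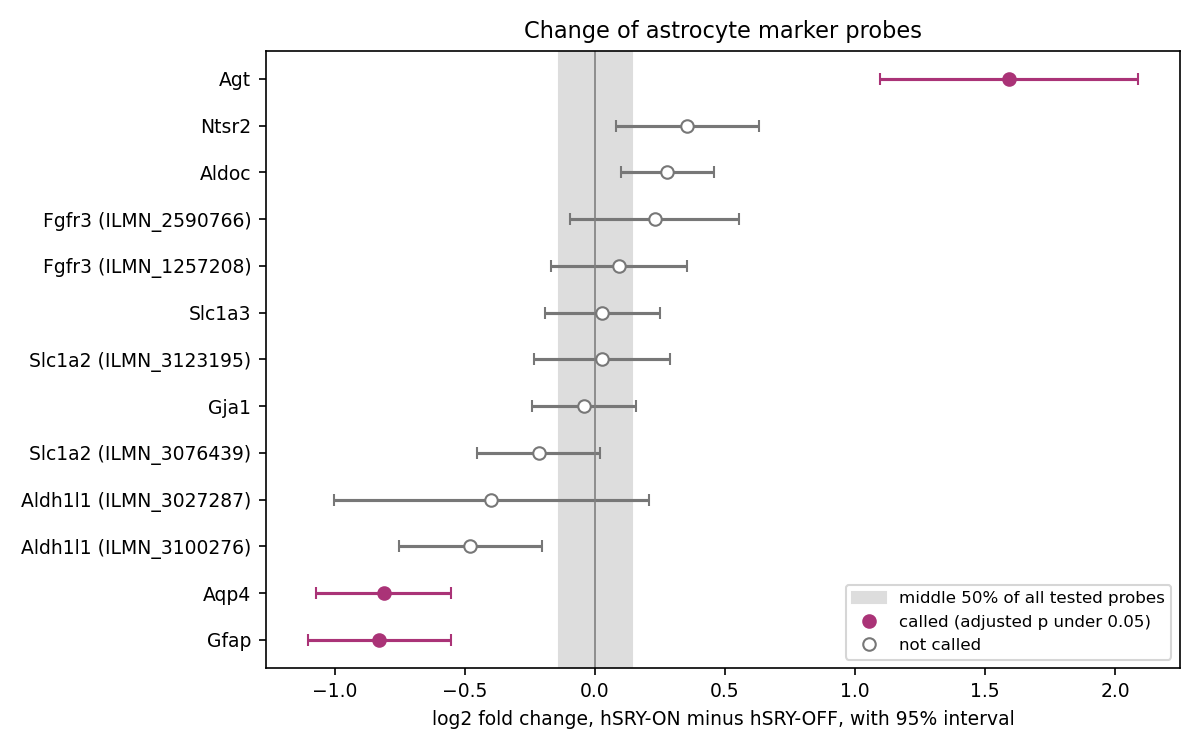
Difference between hSRY-ON and hSRY-OFF in normalized log2 signal for each tested probe, with its 95% interval from the limma fit (filled points are called, open points are not; the grey band holds the middle 50% of all 14215 tested probes). Agt lies at 1.59, Aqp4 and Gfap at -0.81 and -0.83, and the intervals of Slc1a3, Gja1, both tested Slc1a2 probes, both Fgfr3 probes and the dim Aldh1l1 probe include 0.

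A further list of 69 genes known from astrocytes was read to place the 10 markers among others of the same cell type. Of these, 65 were on the array and 54 could be tested, with 75 probes. The untested ones include Glul and S100b, both classical astrocyte genes, each with 1 probe that was above background on 0 arrays. A call was made for 6 of the 54 genes (11.1%, against 2.8% of all tested genes), 2 as higher and 4 as lower, and the median difference was -0.09. As with the 10 markers, called genes lay on both sides.

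Mertk, a receptor for the engulfment of dying cells and synapses, read 7.42, 7.23 and 6.96 in hSRY-OFF and 8.61, 8.35 and 7.96 in hSRY-ON and rose by 1.11 (SE 0.19, limma adjusted p = 0.0386). Prodh, the mitochondrial proline dehydrogenase, read 6.53, 6.41 and 6.39 against 7.56, 7.61 and 7.35 and rose by 1.06 (SE 0.10, limma adjusted p = 0.0225). Neither gene had overlapping groups. Slc14a1, the urea transporter UT-B, fell at 2 of its 3 tested probes, by 0.98 (limma adjusted p = 0.0213) and 0.76 (0.0469), and the remaining probe gave -0.99 with an adjusted p of 0.0656. Gpr37l1, an orphan receptor of astrocytes, fell by 0.85 (SE 0.09, adjusted p = 0.0243), from 10.97, 11.15 and 11.02 to 10.10, 10.18 and 10.32. Lcat, the lecithin-cholesterol acyltransferase of lipoprotein metabolism, fell by 0.66 (adjusted p = 0.0340) at one probe and gave -0.24 (adjusted p = 0.408) at the other. Emp2, an epithelial membrane protein, fell by 0.59 (adjusted p = 0.0386). The sizes at the dimmer probes depended on the background correction. Without any, the differences were 0.65 for Mertk, 0.49 for Prodh and -0.36 and -0.23 for the called probes of Slc14a1, in the same order, all with the same sign and still called.

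Summed on the linear scale over this longer list, with the brightest tested probe of each gene, the level was 125346 to 125723 in hSRY-OFF and 114618 to 116415 in hSRY-ON, without overlap. The 10 markers did not share this, with sums of 45873 to 46178 in hSRY-OFF and 44940 to 51280 in hSRY-ON. Such sums are set largely by the brightest probes.

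**Figure D3:**
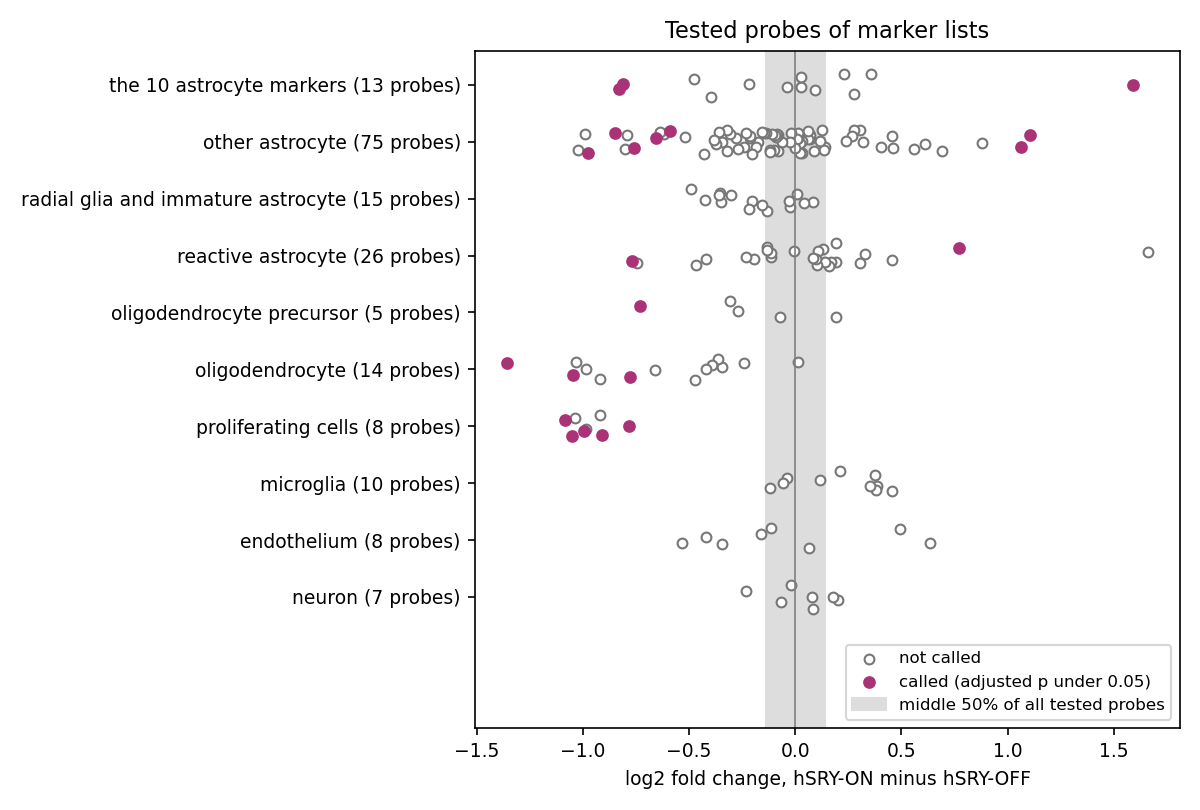
Difference between hSRY-ON and hSRY-OFF in normalized log2 signal for every tested probe of 10 marker lists, 1 point per probe (filled points are called, open points are not; the vertical scatter within a list has no meaning; the grey band holds the middle 50% of all tested probes; a gene may stand in more than 1 list). Called astrocyte probes lie on both sides of 0, while the called probes of oligodendrocytes, their precursors and proliferating cells lie below 0. The rightmost reactive astrocyte point is Lcn2, which was not above background in hSRY-OFF, so its position is not a measured size.

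The pathway partners of each marker were read from lists of related genes, some of which share members. Around Agt, 6 genes of the renin-angiotensin system could be tested and limma called 0 of them (1 at an unadjusted p under 0.05, lower). The receptor gene Agtr1a had the largest positive difference, 0.12 (adjusted p = 0.755), and Mas1, which encodes a receptor for angiotensin fragments, the largest negative one, -0.53 (adjusted p = 0.0648). Renin and the converting enzyme (Ren1, Ace) were among the 9 listed genes with no probe bright enough to test.

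Around Gfap, 10 intermediate filament genes and linkers were tested and limma called 0 of them (0 at an unadjusted p under 0.05). Their probes ran from -0.35 for one of Nes, which encodes the progenitor filament nestin, to 0.26 for one of Lmna, which encodes lamin A. The 5 tested Lmna probes lay on both sides of 0, with the lowest at -0.14, and Vim, which encodes vimentin, was at -0.13 (adjusted p = 0.385). Around Aqp4, 1 of 11 genes for endfoot and water channel proteins was called. This was Aqp1, the water channel of choroid plexus epithelium, which rose by 0.67 (SE 0.11, limma adjusted p = 0.0348), from 7.68, 7.76 and 7.69 to 8.57, 8.33 and 8.22, and its other 2 probes gave 0.71 and 0.51 without passing (adjusted p = 0.195 and 0.112). The direction of Aqp1 was thus opposite to that of Aqp4.

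Beside Gja1, the other astrocyte connexin gene, Gjb6, was at 0.46 (SE 0.12, adjusted p = 0.102). Around the transporters Slc1a2 and Slc1a3, limma called 0 of 11 genes of glutamate transport and the glutamine cycle (5 at an unadjusted p under 0.05, 1 higher and 4 lower), with extremes of 0.47 for one probe of Slc1a1, the neuronal transporter EAAC1, and -0.63 for Slc17a7, the vesicular transporter VGLUT1 (adjusted p = 0.0595). The second probe of Slc1a1 was at -0.04.

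Around Aldh1l1, 1 of 13 genes of folate metabolism was called, Tyms, the thymidylate synthase used in DNA synthesis, which fell by 0.63 (SE 0.10, limma adjusted p = 0.0330) at one probe and gave -0.20 (adjusted p = 0.514) at the other. Around Aldoc, limma called 0 of 9 genes of aldolase and glycogen metabolism (2 at an unadjusted p under 0.05, both higher), from -0.22 for Ugp2 to 0.60 for the glucose transporter gene Slc2a1 (adjusted p = 0.107), and the ubiquitous aldolase gene Aldoa was at 0.04. Around Ntsr2, limma called 0 of 3 neurotensin genes (2 at an unadjusted p under 0.05, 1 in each direction), with the ligand Nts at 0.76 (adjusted p = 0.0679) and the sorting receptor Sort1 at -0.19 (adjusted p = 0.218) at the lowest of its 4 probes and 0.17 at the highest. Around Fgfr3, 1 of 18 FGF genes was called (at an unadjusted p under 0.05, 3 were higher and 1 lower), the decoy receptor Fgfrl1, which fell by 0.70 (SE 0.13, limma adjusted p = 0.0453). The sister receptors Fgfr1 and Fgfr2 were at 0.44 (adjusted p = 0.241) and -0.0016 (adjusted p = 0.997). Kl, which encodes the FGF co-receptor klotho, was above background on 0 of 3 hSRY-OFF and 3 of 3 hSRY-ON arrays. This gives a bound of at least 1.70-fold higher in hSRY-ON, or 2.03-fold without hSRY-ON 3. The limma test of Kl over all arrays did not pass (adjusted p = 0.0910).

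Lists of astrocyte states were read next. Among genes of radial glia and immature astrocytes, limma called 0 of 10 (3 at an unadjusted p under 0.05, all lower), from -0.49 for Fabp7 (adjusted p = 0.168), which encodes the brain fatty acid binding protein, to 0.09 for Notch1, and the summed level was lower (5489 to 5897 in hSRY-ON, 6377 to 6606 in hSRY-OFF). Of the Bergmann glia list 2 genes were tested, Gdf10 at -0.11 and Ptch1 at -0.14, and limma called 0 (0 at an unadjusted p under 0.05). Among 22 genes of reactive astrocytes, 2 (9.09%) were called in opposite directions. Fkbp5, a co-chaperone that is also a target of the glucocorticoid receptor, rose by 0.77 (SE 0.11, limma adjusted p = 0.0325), and Cd44, a hyaluronan receptor, fell by 0.77 (SE 0.13, limma adjusted p = 0.0368). Lcn2, a marker of acute astrocyte reaction, was above background on 0 of 3 hSRY-OFF arrays and on 3 of 3 hSRY-ON arrays, where it read 6.06, 5.82 and 7.74, with hSRY-ON 3 the highest. Only a bound can be given for it, at least 2.12-fold higher in hSRY-ON, or 1.40-fold without hSRY-ON 3, taking the dimmest detected probe of each hSRY-OFF array as the limit, and the limma test did not pass (adjusted p = 0.112). Serpina3n, another gene of that list, was at 0.19 (adjusted p = 0.278).

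Markers of other cell types were read in the same way. Of the proliferating cell list 5 of 5 tested genes (Top2a, Cdc2a, Plk1, Birc5 and Ccnb1) were called as lower, with a median of -0.997 and a summed level of 1250 to 1902 in hSRY-ON against 2752 to 3226 in hSRY-OFF. Of the oligodendrocyte list all 8 genes lay below 0 at their brightest probe (median -0.57), 2 of them called (Mobp and Ugt8a), with sums of 24127 to 24946 against 31666 to 40120. Of 5 oligodendrocyte precursor genes 1 was called as lower (Gpr17), with sums of 9618 to 10028 against 11741 to 12300. The precursor gene Pdgfra was at 0.19 (adjusted p = 0.254), with every hSRY-ON array above hSRY-OFF. The called genes of these 3 lists had the same sign as Gfap and Aqp4, and the part of these cells in the result was not tested. Of 8 microglial genes limma called 0 (3 at an unadjusted p under 0.05, all higher), with sums of 3911 to 4251 in hSRY-ON above 3161 to 3453 in hSRY-OFF.

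For the remaining types limma called 0 of 6 neuronal genes (0 at an unadjusted p under 0.05, sums of 43187 to 45656 against 40657 to 45157 in hSRY-OFF), 0 of 7 endothelial genes (5 at an unadjusted p under 0.05, 2 higher and 3 lower, sums of 6668 to 7427 against 7687 to 8163) and 0 of 3 ependymal genes (1 lower at an unadjusted p under 0.05, sums of 984 to 1101 against 1176 to 1288). The neuronal sums overlapped between the groups. Markers of neurons and of all glial types were detected in this tissue, although the single probes of Snap25 and Nefl were above background on 0 arrays. The part of endothelial and ependymal cells in the result was not tested.

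The probes whose profile over the 6 arrays came closest to that of Agt, by the root mean square difference of values centred on the hSRY-OFF mean, were LOC100047583 (0.199 log2 units), Ovgp1 (0.217), Edn1 (0.242), Vwf (0.273) and Tmem82 (0.287). They rose by 1.32 to 1.75, all of them called. Vwf and Edn1 are known from endothelial cells and were not among the 7 tested genes of the endothelial list. Closest to Gfap were Ugt8a (0.079), Gpr37l1 (0.101), Brip1 (0.111), Mxd3 (0.112) and Htt (0.119), which fell by 0.76 to 0.89 and were all called. Gpr37l1 is an astrocyte gene of the longer list, and Ugt8a, an enzyme of myelin lipid synthesis, is on the oligodendrocyte list. Likeness over 6 arrays in 2 groups is set mostly by the difference between the groups.

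The directions of Agt, Gfap and Aqp4 were the same in all 15 alternative fits, while their calls were less stable. Without hSRY-OFF 1 the adjusted p was 0.0921 for Agt, 0.0921 for Gfap and 0.0962 for Aqp4, and without hSRY-OFF 2 it was 0.109, 0.111 and 0.111 in the same order. Without hSRY-OFF 3 it was 0.0896, 0.0933 and 0.0871, without hSRY-ON 1 0.0770, 0.0877 and 0.0848, and without hSRY-ON 2 0.0725, 0.0732 and 0.0614. No call was left among the 13 probes in these 5 fits, which made at most 1 call over all probes. Without hSRY-ON 3, the array that stood apart, all 3 were called (0.0164, 0.0380 and 0.0380), Aldh1l1 joined them, and Agt was at 1.81. Of the other astrocyte genes, limma called 0 in each of the former 5 fits and 12 without hSRY-ON 3. In these 6 fits 5 or 6 of the tested marker probes had an unadjusted p under 0.05, as had 16% to 22.5% of all tested probes.

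**Figure D4:**
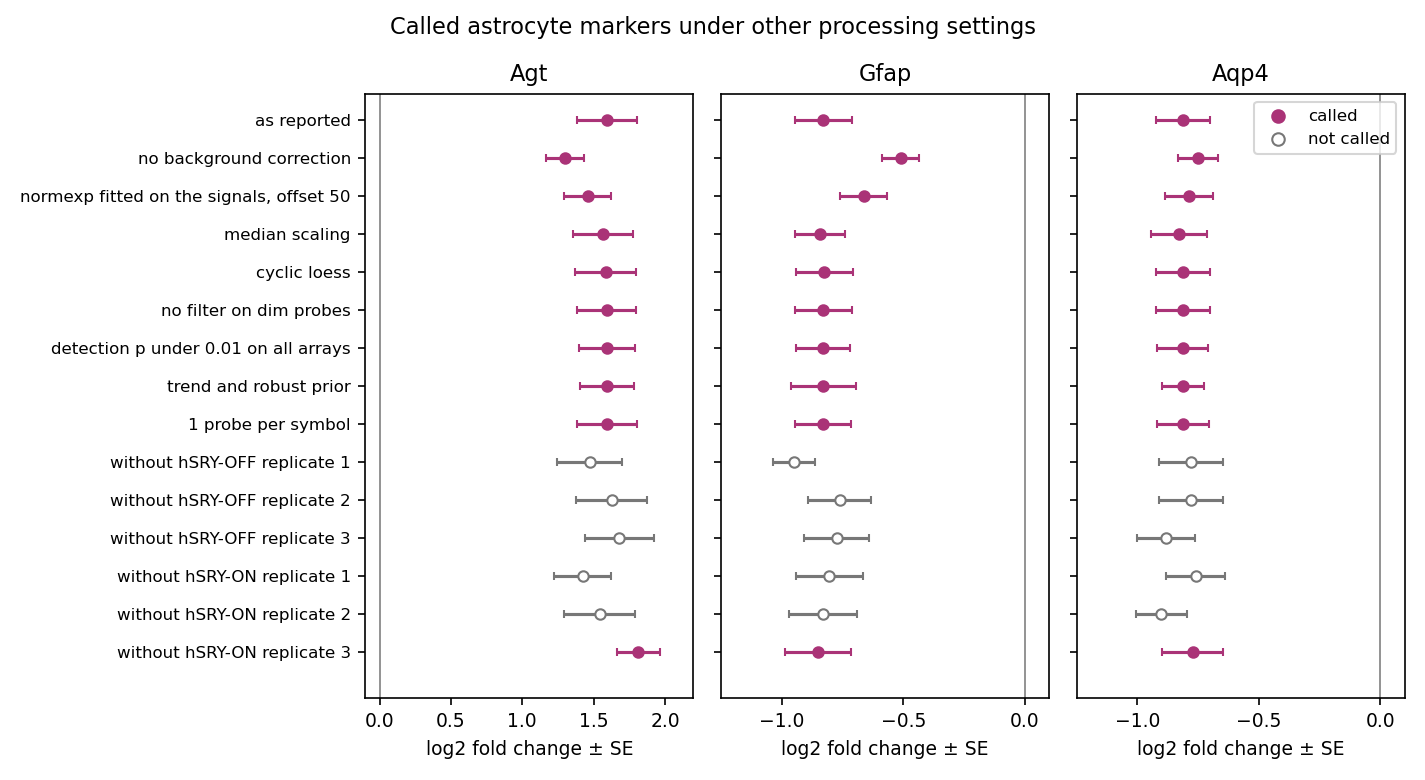
Difference between hSRY-ON and hSRY-OFF in normalized log2 signal (± SE) for Agt, Gfap and Aqp4 in the reported fit and under the alternatives named on the vertical axis (filled points are called at an adjusted p under 0.05, open points are not). All points of Agt lie above 0 and all points of Gfap and Aqp4 below 0, and the calls are lost without any one of 5 of the 6 arrays. The fit with the replicate number as a block, in which these calls were also lost, is not drawn.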

How the data were processed

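The brain series held 6 Illumina MouseRef-8 v2.0 arrays, 3 per group, grouped by the genotype in their titles. The authors deposited a mean bead signal intensity per probe and array on a linear scale, with no stated background correction and unequal quantiles, so not normalized. Beside it they deposited a detection p-value, whose steps matched 798 negative controls. The submitters' processing notes name limma, and the study's methods name TCC without settings. No output of either was used. In R 4.3.3 with limma 3.58.1, control mean and SD were inferred from the detection p-values, followed by normexp (offset 16), log2 and quantile normalization. This correction widens the spread of dim probes. A probe was tested if its detection p-value was under 0.05 on 3 or more arrays. lmFit and eBayes were fitted on all 14215 such probes with group as the only term (two-sided, Benjamini-Hochberg over all of them, call at 0.05). The precision is limited by 3 arrays per group.

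Probes of 1 gene were tested separately, and the brightest stood for the gene in medians and sums. Levels of different probes were not compared. The members and all gene lists were chosen with earlier results of these data known, so no list was tested. Named were all probes of the 10 markers, every gene with a called probe in each further list, otherwise the genes with its largest positive and negative difference, and the 5 nearest profiles to Agt and Gfap. Vim, Fabp7, Gjb6, Aldoa, Fgfr1, Fgfr2, Lcn2, Kl and Serpina3n, genes that could not be tested and second probes were also named for their roles, some after their values were seen. Some results on listed genes are not reported here. The steps were tested on simulated data. Promoter windows came from RefSeq (GRCm38.p6). All 10 symbols were in its annotation, whose coordinates were not applied to probes, since the array table names no build. Alternatives changed the background correction, normalization, filter, prior, replicate block, probes per symbol or left out an array. A block by slide was not run, as no slide is given in the sources used here. Plots used matplotlib 3.10.9 (Python 3.11.15).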

Additional observations from a re-analysis of the deposited data

How the results depend on the processing

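The count of 3 called marker probes and 6 called further astrocyte genes became 6 and 21 without background correction, 4 and 18 with normexp fitted on the signals (offset 50), 3 and 9 with median scaling, 3 and 8 with cyclic loess, 3 and 3 with no filter on dim probes, 4 and 14 with a detection p-value under 0.01 asked on all arrays, 6 and 23 with a trend and a robust prior, and 3 and 12 with 1 probe per symbol. Leaving out 1 array gave 0 to 4 marker probes and 0 to 12 further genes. Over all probes the count of 308 became 1317, 860, 332, 338, 123, 705, 1447 and 375 in the order of the settings above, and 0 to 417 without 1 array. The filters also changed the number of probes tested. Otherwise the cause was not tested. The median difference over the 10 genes was recomputed with every change of correction, scaling or filter and with every array left out, and stayed near 0, from -0.0707 to 0.0352 when an array was left out, and its sign carries no information. Among 191 refits of single marker probes 161 kept their direction and side of the threshold, 18 lost and 9 gained a call, and 3 turned in sign, all without an array and none called. These were Slc1a2 (ILMN_3123195, -0.0512 to 0.1053) and Slc1a3 (-0.051 to 0.0779). The arrays of both groups carry replicate numbers 1 to 3, but nothing says that a number marks a shared litter or day. Same-numbered arrays deviated together with correlations of 0.0404, 0.0294 and 0.0251, all under 0.1, while every array correlated best with its own number, a hint from the data only. With the replicate number as a block, limma called 0 marker probes, 0 further genes and 0 probes in all (7 marker probes and 20.4% of all probes at an unadjusted p under 0.05), with an adjusted p of 0.103 for Agt, 0.0989 for Gfap and 0.0986 for Aqp4. The dim second probe of Aldh1l1 had the widest interval of the 13 and that of Agt the next widest.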
